A study of Mus musculus with 18 samples.

Results

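Methylation in Dnmt1 KO embryonic stem cells (ESCs) was compared between day 9 and day 3 after deletion of Dnmt1, within Dnmt1 KO alone. The comparison used 2 libraries of day 9 and 2 of day 3, and the 1 library of day 6 is shown between them without a test. These are 5 of the 18 whole-genome bisulfite libraries of the series, chosen by genotype and day as the labels give them. Dnmt1 KO cells carry a deletion, by tamoxifen-induced Cre, of Dnmt1, the methyltransferase that copies CpG methylation onto the new strand after replication. The 2 day 3 and 2 day 9 libraries labelled as wild type, called control here, show what the same culture time does when Dnmt1 is present. The labels give E14 as the strain of every library, while the study's methods describe the floxed Dnmt1 cells as a C57BL/6 line, so a difference between genotypes can include a difference between lines. Nothing in the labels says whether libraries of one group came from separate cultures, so every p-value here measures the spread between libraries, which may be technical. In the tests of single tiles and genes that spread was estimated over all 18 libraries, control and other days included, and moderated across tiles or genes.

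Methylation of CpGs is normally kept by DNMT1, which acts on hemimethylated DNA together with UHRF1. When DNMT1 is lost, methylation is diluted at each round of replication, while the de novo enzymes DNMT3A and DNMT3B can still add it and the TET enzymes can oxidise it. ESCs express both de novo enzymes, so they retain some methylation without DNMT1.

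The 5 Dnmt1 KO libraries held 7190722 to 11158414 CpG calls, a call being one read of one cytosine as methylated or unmethylated. Because this is 1.202 to 1.253 calls per covered cytosine, calls were summed over classes of CpGs, over fixed 100 kb tiles and over genes. In the mitochondrial genome, a measure of incomplete conversion, 0.318% and 0.266% of calls were methylated at day 3, 0.277% at day 6, and 0.376% and 0.467% at day 9. The deletion was visible as missing calls in chr9:20744012-20746412 (NCBIM37), inside Dnmt1 (ENSMUSG00000004099.8). This stretch of 41 CpGs was chosen after the counts were seen, as the run of CpGs without a call in Dnmt1 KO that had the most control calls. It held 7 to 29 calls in each of the 9 control libraries and 0 in all 5 of the Dnmt1 KO libraries compared here, and the rest of the gene had 1794 calls in those 5.

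Autosomal CpG methylation was lower at day 9 than at day 3 in Dnmt1 KO, on every chromosome. The Dnmt1 KO libraries were at 33.4% and 34.6% at day 3, at 24.2% at day 6, and at 24.5% and 25.6% at day 9. The day 9 libraries lay below both day 3 libraries, with a difference of -8.90 points between 34.0% ± 0.833 (SD, n = 2) and 25.1% ± 0.745 (SD, n = 2), so that 73.8% of the day 3 level was left. The single day 6 library was lower than both day 9 libraries, so the levels of the 3 days did not fall in the order of time. An exact two-sided permutation test of 2 against 2 libraries cannot give a p below 0.333, and gave that value.

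In control cells the autosomal level was 75.6% at day 3 and 76.8% at day 9, a difference of 1.26 points, and the single control library of day 6 was at 79.0%, above every control library of days 3 and 9. The change in Dnmt1 KO minus the change in control was -10.2 points, with p = 0.0556 in an exact two-sided permutation of days within genotype, the smallest p that its 36 arrangements allow.

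**Figure D1:**
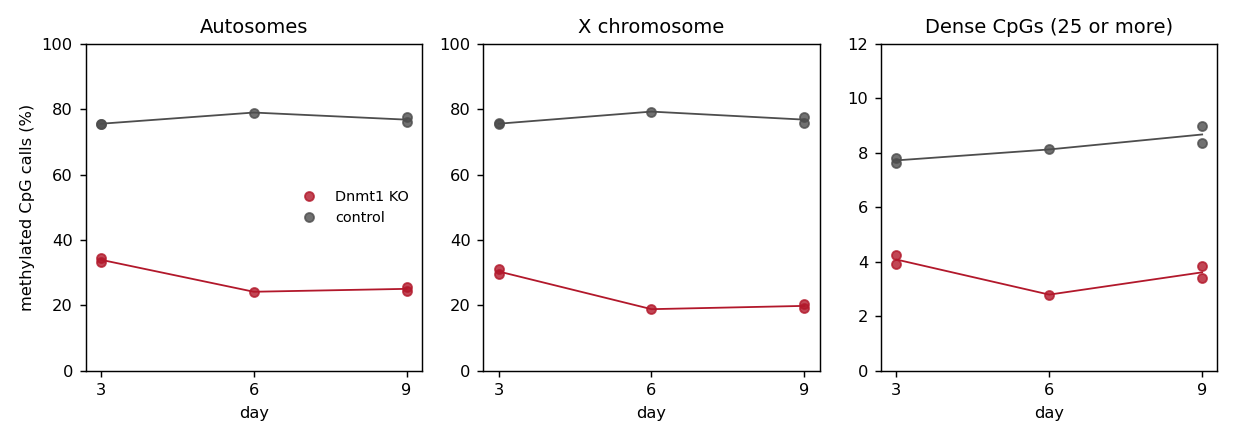
Percent of methylated CpG calls (vertical axes) by day (horizontal axes) on autosomes, on the X chromosome and at CpG-dense sites, 1 point per library, with lines through group means. The Dnmt1 KO autosomal level went from 34.0% at day 3 to 24.2% at day 6 and 25.1% at day 9, while control was at 75.6%, 79.0% and 76.8% on the same days (1 library at day 6). Each panel has its own vertical axis.

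Both day 9 libraries were below both day 3 libraries on 20 of 20 chromosomes, and the day 6 library was below both day 9 libraries on 20 of 20. With cytosines of over 20 calls in any library left out, autosomes differed little from each other. Their share left ranged from 70.5% to 74.5%. The X chromosome kept a smaller share than any autosome. It was at 29.8% and 31.1% at day 3, at 18.9% at day 6, and at 19.3% and 20.4% at day 9, which left 65.3%. Its change was -10.5 points, with p = 0.333 in the exact permutation test. Chromosomes 2 and 9 stood above the rest at day 9, at 29.4% and 29.1%, with a few stretches that collected very many calls. Without cytosines of over 20 calls they were at 23.9% and 25.1%.

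The share of methylation that was left rose with the number of CpGs around a site. Each autosomal CpG was assigned a density, the count of CpGs in a window reaching 250 bp to its left and right, itself included. Isolated CpGs, with no other in that window, were at 27.1% and 28.9% at day 3, at 15.8% at day 6, and at 15.9% and 16.7% at day 9, so 58.3% was left. At 4 to 5 CpGs the libraries were at 34.1% and 35.6% at day 3 and at 24.1% and 24.8% at day 9, and 70.1% was left. At 10 to 14 CpGs they were at 37.7% and 38.9% at day 3 and at 30.1% and 31.5% at day 9, and 80.4% was left. Above that the rise stopped, with 80.9% left at 15 to 19 CpGs, 77.4% at 20 to 24 and 81.3% at 25 to 39. The day 6 library was below both day 9 libraries in 11 of 11 bins.

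The densest sites followed another course. CpGs in windows of 40 or more CpGs were at 1.12% and 1.04% at day 3, at 0.836% at day 6, and at 1.21% and 1.39% at day 9. Both day 9 libraries were above both day 3 libraries, and the difference of the means was 0.217 points. Control changed by 0.410 points in the same class, and methylated mitochondrial calls, given above, were also higher in both day 9 libraries than in both day 3 libraries. Their part in the difference was not tested.

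**Figure D2:**
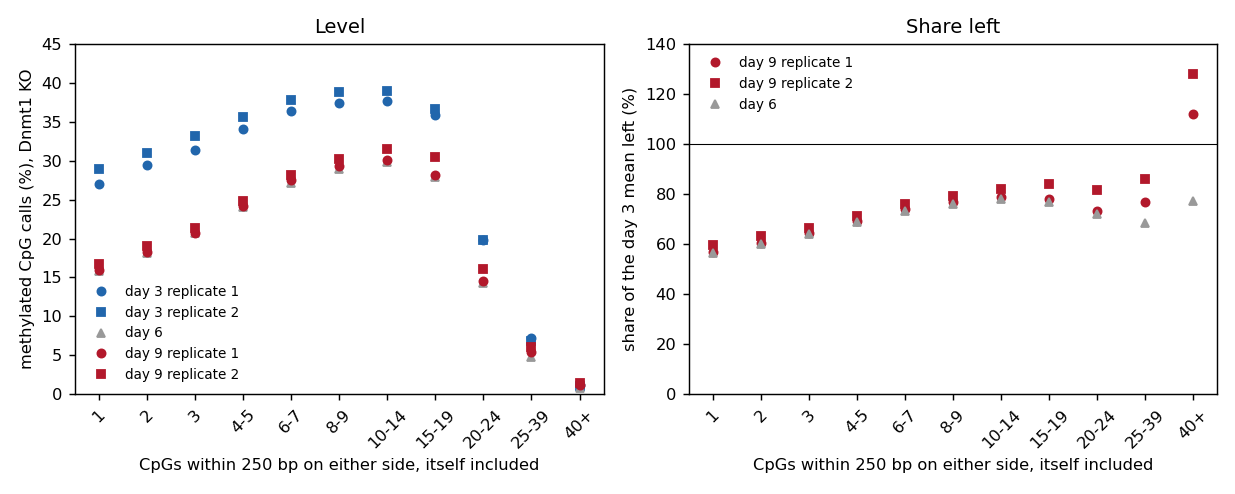
Left, percent of methylated calls in each Dnmt1 KO library (vertical axis) by number of CpGs up to 250 bp away (horizontal axis), with blue for day 3, grey for day 6 and red for day 9. Right, each day 6 or day 9 library as a share of the day 3 mean, which rose from 58.3% left for isolated CpGs to 80.4% at 10 to 14 CpGs (means of day 9), and the line marks 100%.

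In 3 broad classes, sparse CpGs (under 10) were at 33.9% and 35.5% at day 3 and at 24.2% and 24.9% at day 9, a change of -10.2 points. Intermediate CpGs (10 to 24) were at 36.2% and 37.2% at day 3 and at 28.8% and 30.5% at day 9, a change of -7.12 points. Dense CpGs (25 or more) were at 4.26% and 3.92% at day 3 and at 3.39% and 3.84% at day 9, a change of -0.470 points. In each class both day 9 libraries were below both day 3 libraries, and the exact permutation test gave its smallest possible p of 0.333. Intermediate CpGs kept 80.6% and sparse CpGs 70.7%, a difference of 9.90 points in the share left. With cytosines of over 20 calls left out, that difference was 8.15 points. For dense CpGs the size of the fall depended on the class limit and the libraries, with -0.0228 points at 30 or more CpGs, -0.247 points without day 9 replicate 1 and -0.300 points without day 3 replicate 1.

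The same order had been present in the first 3 days. Between day 1 and day 3, isolated CpGs kept 38.9% and CpGs with 10 to 14 in the window kept 52.7%. Both intervals share the day 3 libraries, so the values are given side by side and not as a relation.

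The share left also varied with the CpG content of the wider region. Autosomal 100 kb tiles were split into 5 groups of like size by their number of CpGs, from 113 to 532 CpGs in the poorest group to 1151 or more in the richest. Isolated CpGs in the poorest group were at 23.9% and 25.8% at day 3 and at 11.9% and 12.8% at day 9, and 49.7% was left. In the richest group, isolated CpGs were at 31.5% and 32.5% at day 3 and at 22.9% and 23.8% at day 9, and 72.8% was left. Isolated CpGs therefore differed by region at equal local density. Within the poorest group, the share left rose from 49.7% to 67.03% between isolated CpGs and those with 10 to 24 in the window, and within the richest group it rose from 72.8% to 79.6%. These are levels summed over the genome, given as a description.

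**Figure D3:**
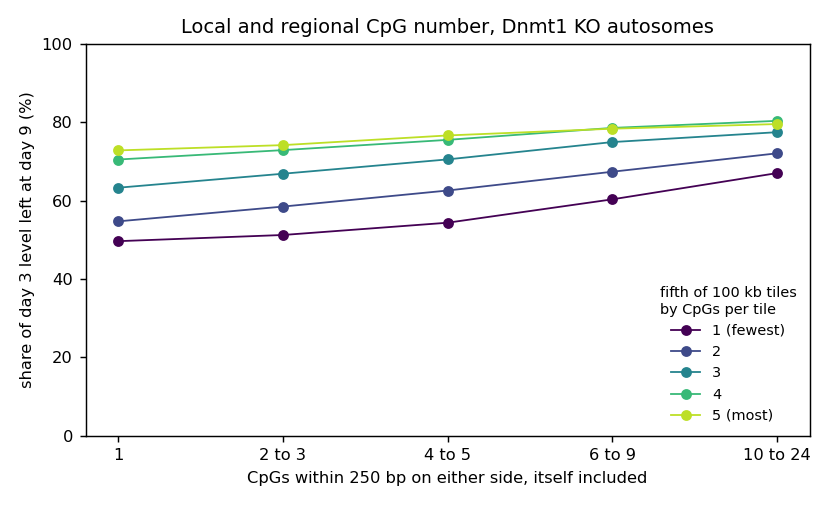
Share of the day 3 level left at day 9 in Dnmt1 KO (vertical axis) by CpGs up to 250 bp away (horizontal axis), with a line for each of the 5 groups of autosomal 100 kb tiles ranked by CpGs per tile. The share left for isolated CpGs ran from 49.7% in the poorest group to 72.8% in the richest, and every line rose to the right between 1 and 10 to 24 CpGs.

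Sequence next to the CpG was described for all 256 combinations of 2 bases before and 2 after, read 5′ to 3′ on the strand of the called cytosine. In 256 of 256 (100%) both day 9 libraries were below both day 3 libraries, so the contexts differed in the size of the fall and not in its direction. The sums by flanking bases include the stretches of very many calls on chromosomes 2 and 9. The tiles chr2:98500001-98600000 and chr9:3000001-3100000 there kept 82.7% and 83.8%. The sums were not repeated without these stretches, so their part in the differences between contexts was not tested. With them included, the share left ran from 57.7% to 87.8%, around a median of 73.4%. The contexts at both ends are printed because they define this range, with the CpG in capitals, first the 4 that kept the least and then the 4 that kept the most.
least 1: aaCGtt
least 2: atCGtt
least 3: gtCGtt
least 4: atCGtg
most 4: cgCGcg
most 3: ctCGcc
most 2: taCGcg
most 1: taCGgc
CpGs in aaCGtt were at 20.9% and 21.9% at day 3 and at 11.9% and 12.8% at day 9. CpGs in taCGgc were at 51.2% and 52.2% at day 3 and at 45.1% and 45.8% at day 9, so they started higher and kept more. Over single positions, 67.7% was left with A 2 bases before the CpG and 75.3% to 76.1% with any other base there, and 69.1% was left with T 2 bases after it and 73.4% to 77.6% with any other base. Among sparse CpGs alone 56.0% was left in aaCGtt and 87.3% in taCGgc, while cgCGcg and ctCGcc, with 79.3% and 79.1% left, were no longer among the 4 that kept the most.

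Intergenic CpGs were at 33.1% and 34.6% at day 3 and at 23.1% and 23.7% at day 9, with 69.2% left. Gene bodies were at 35.1% and 36.2% at day 3 and at 26.8% and 28.0% at day 9, with 76.9% left. Promoters, the 1 kb upstream of transcription starts, were at 19.7% and 19.6% at day 3, at 13.6% at day 6, and at 15.1% and 17.5% at day 9. The 2 day 9 libraries lay apart there, and the promoter change was -3.36 points with both and -2.17 points without day 9 replicate 1. Sparse CpGs kept 67.5% between genes, 73.9% in gene bodies and 74.3% in promoters. The exact permutation p was 0.333 for each of the 3 classes.

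Across the genome, 15388 of 24998 tested 100 kb tiles (61.6%) had lower methylation at day 9 and 0 had higher, in the quasi-binomial test moderated with limma at a Benjamini-Hochberg adjusted p under 0.05. At an unadjusted p under 0.05, 17238 tiles were lower and 0 higher, and neither limma on log2 ratios nor edgeR called a higher tile. The count was 3103 without day 3 replicate 2 and 6813 without day 9 replicate 1. The estimated change was below 0 in 99.2% of tiles, with a median of -10.1 points and a range between quartiles of -13.5 to -6.96 points. The median tile was at 32.8% at day 3, 21.6% at day 6 and 22.3% at day 9. The SD over tiles was 5.86 points at day 3 and 6.84 points at day 9.

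In control, 8 tiles passed the same test between day 3 and day 9. The change in Dnmt1 KO differed from that in control in 9713 tiles (38.9%), of which 9711 (38.8%) fell more in Dnmt1 KO and 2 (0.008%) in control. Among Dnmt1 KO libraries, leaving out day 3 replicate 2 gave 1043 tiles and leaving out day 9 replicate 1 gave 3464. Leaving out control day 9 replicate 1 gave 3775, control day 3 replicate 1 6358 and control day 3 replicate 2 5849.

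The fall of a tile varied with its CpG content and gene content. Going from the poorest to the richest group of autosomal tiles in CpGs, the median share left was 52.7%, 60.9%, 71.3%, 77.1% and 78.3%, and the median change was -13.7, -12.6, -10.1, -8.10 and -6.88 points. Tiles without an annotated gene kept 60.1% at the median, tiles over 50% but not wholly inside genes 75.4%, and tiles wholly inside genes 71.3%. These groups were not matched for CpG number, with medians of 565.5, 1075 and 738 CpGs, so gene content was not separated from it. Across 23759 autosomal tiles, Pearson's r between CpGs per tile and the change was 0.53 and Spearman's rho 0.57, as a description of tiles that share the same libraries. At matched CpG number, X tiles kept 58.7% in the range of the poorest group and 73.9% in that of the fourth, against 52.7% and 77.1% for autosomal tiles. X tiles of the poorest range thus kept a larger share than autosomal ones at the median, and X tiles had fewer CpGs, with a median of 573 against 779.

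Tiles that departed from the rest were few. From the median change of all tiles, 5 tiles (0.02%) departed at an adjusted p under 0.05, all with a smaller fall or a rise, and 0 with a larger fall, although 1079 had a larger fall at an unadjusted p under 0.05. The count was 1 without day 3 replicate 2 or day 9 replicate 1 and 2 without day 9 replicate 2. With tiles of 1 Mb, 66 of 2577 departed with a larger fall and 45 with a smaller one, so the direction of departures changed with the tile size. The first, chr5:140200001-140300000, holds Micall2, Ints1, Mafk, Tmem184a and Psmg3. It was at 22.0% and 24.7% at day 3, at 17.5% at day 6, and at 27.8% and 27.5% at day 9. Both day 9 libraries were above both day 3 libraries, by 4.01 ± 2.47 points (SE), with an adjusted p of 0.144 for that difference and of 0.0486 for the departure from the median change. The second, chr13:23500001-23600000, holds Abt1, Btn1a1 and Btn2a2 and was low throughout, at 9.08% and 7.54% at day 3 and at 8.46% and 9.84% at day 9. The third, chr3:5800001-5900000, holds no annotated gene and was at 8.49% and 6.66% at day 3 and at 6.59% and 6.59% at day 9. Tiles with a low day 3 level cannot fall by the median change in points. Without day 3 replicate 2 the estimate of the chr13 tile was -0.0259 points.

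Both of the remaining tiles held far more calls than the median tile. The tile chr17:39900001-40000000 with AY036118 was at 3.50% and 2.96% at day 3 and at 2.01% and 3.91% at day 9. The tile chr9:3000001-3100000, which holds a run of Gm genes that begins with Gm16869, had 379039 calls at day 3 and 310288 at day 9. It was at 44.8% and 46.2% at day 3, at 39.9% at day 6, and at 38.3% and 38.2% at day 9, so it fell with 83.8% left. Without cytosines of over 20 calls, 2 tiles departed from the median change in place of 5.

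When the question was asked in proportion, with 73.8% left as the value to depart from, 4 tiles (0.016%) passed. Of these, 2 (0.008%) kept less and 2 (0.008%) more. The 73.8% is over all autosomal calls, while the median tested tile kept 69.5%. A typical tile thus lay on the side of a larger share lost. The tile chr2:96500001-96600000, which lies inside Lrrc4c, was at 35.4% and 33.5% at day 3, at 12.7% at day 6, and at 8.47% and 4.62% at day 9, so that 19.3% was left. The tile chr4:51300001-51400000, without an annotated gene, was at 31.8% and 39.3% at day 3 and at 9.21% and 3.77% at day 9, with 19.5% left. The ones that kept more were the chr9 tile above and chr2:98500001-98600000, another stretch of very many calls, with 82.7% left. These 4 are named because they passed, after their values were seen.

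The largest falls in points were in chr5:68800001-68900000, without an annotated gene, and in chr5:58000001-58100000, which lies in 4932441J04Rik. The first was at 44.0% and 40.7% at day 3, at 23.1% at day 6, and at 12.6% and 10.3% at day 9, a fall by 30.4 ± 4.17 points (SE, adjusted p = 0.00066, quasi-binomial test). The second was at 41.2% and 43.4% at day 3, at 21.1% at day 6, and at 14.7% and 10.4% at day 9. In both tiles the day 6 library lay between the day 3 and day 9 libraries. The tiles were chosen for the largest difference between days 3 and 9, and day 6 had no part in that choice. Its place between them therefore cannot show a course other than that of the autosomal mean. Then came 3 X tiles, of which chrX:56300001-56400000 holds Fgf13, a fibroblast growth factor homologous factor. It was at 39.3% and 39.7% at day 3, at 9.62% at day 6, and at 9.09% and 11.11% at day 9. These tiles did not pass the test of departure from the median change, with adjusted p from 0.160 to 0.436.

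A window of 200 bases is printed from each of 2 tiles, one that fell and one that did not, with every CpG in capitals. The windows are from the plus strand of NCBIM37, lie outside exons, and were chosen by calls, as the consecutive 200-base windows whose smaller total of day 3 and day 9 was the highest in the tile, for the first among windows with up to 5 CpGs. The first, chr5:58053801-58054000 in an intron of 4932441J04Rik, has 4 CpGs and lies in a tile that fell. Methylated calls were 4 of 7 at day 3 and 0 of 6 at day 9 in Dnmt1 KO, and 11 of 13 and 4 of 5 in control. The second, chr5:140268001-140268200 in an intron of Mafk, has 10 CpGs and lies in the tile that did not fall. Methylated calls were 0 of 21 at day 3 and 0 of 11 at day 9 in Dnmt1 KO, and 1 of 25 and 1 of 6 in control, so this window was nearly unmethylated at day 3 in both genotypes and does not carry the level of its tile. Windows were picked in the same way in 2 more tiles and are not printed. In chr5:68800001-68900000, under the limit of 5 CpGs, methylated Dnmt1 KO calls were 1 of 6 at day 3 and 1 of 12 at day 9. In chr13:23500001-23600000, they were 0 of 17 and 0 of 15. Such small counts describe the windows only. Of the 2 printed windows, the limit of 5 CpGs held for the first alone, so their CpG numbers cannot be compared.
intron of 4932441J04Rik: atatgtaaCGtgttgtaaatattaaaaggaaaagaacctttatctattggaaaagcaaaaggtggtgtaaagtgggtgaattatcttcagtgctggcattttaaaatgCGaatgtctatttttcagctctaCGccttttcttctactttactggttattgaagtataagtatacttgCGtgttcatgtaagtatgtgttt
intron of Mafk: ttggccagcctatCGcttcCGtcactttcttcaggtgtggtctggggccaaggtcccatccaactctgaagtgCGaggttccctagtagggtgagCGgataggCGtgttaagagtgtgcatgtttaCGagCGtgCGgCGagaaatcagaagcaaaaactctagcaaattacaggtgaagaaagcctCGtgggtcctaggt

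Among genes, 1563 of 16219 tested gene bodies (9.64%) had lower methylation at day 9 and 0 had higher, by the same quasi-binomial test. At an unadjusted p under 0.05, 4423 were lower and 3 higher, among them Ahnak2 and 9130017K11Rik, named after their values were seen. Ahnak2 was at 16.6% and 16.8% at day 3, at 28.2% at day 6, and at 36.6% and 27.7% at day 9, with an adjusted p of 0.101. limma called 120 gene bodies and edgeR 1436, none of them higher. A fit of the 4 libraries of days 3 and 9 alone called 3 higher and 3101 lower. The count was 296 without day 3 replicate 2, 493 without day 9 replicate 1, 825 without day 9 replicate 2 and 871 without day 3 replicate 1. The median gene body kept 74.6% and changed by -7.84 points.

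Passing went with gene length, and long genes had more calls, with a median of 4221 at day 3 in the longest class and 114 in the shortest. Of 205 gene bodies of 500 kb or more, 97.6% passed, against 1.4% of 2006 under 10 kb. The median share left was 72.7% under 10 kb, 74.6% for 10 to 100 kb, 75.5% for 100 to 500 kb and 67.03% for the longest class, with no steady trend.

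In proportion, 44 gene bodies (0.271%) departed. Those that kept a smaller share than the genome numbered 29 (0.179%), and those that kept a larger share 15 (0.0925%), named below after their values were seen. Among the 29, Lrrc4c, a synaptic adhesion protein, was at 24.9% and 28.2% at day 3, at 10.99% at day 6, and at 10.2% and 12.2% at day 9, with 41.6% left and an adjusted p of 0.00027. Lrp1b, a large lipoprotein receptor family member, was at 29.6% and 30.5% at day 3 and at 14.5% and 14.3% at day 9, with 47.9% left. Ncam2, a neural cell adhesion molecule, was at 27.8% and 29.3% at day 3 and at 11.4% and 12.8% at day 9, with 41.9% left. Fstl5 kept 39.02%, Grm7, a metabotropic glutamate receptor, 44.0%, Cntnap2, a neurexin family protein, 55.2%, and Nrxn3, a neurexin, 55.3%. In each of these genes both day 9 libraries were below both day 3 libraries. The genes were chosen by a test on the same libraries, so this adds no support. Lrrc4c, Lrp1b, Fstl5, Grm7, Cntnap2 and Nrxn3 are over 500 kb long, and Ncam2 is shorter. Gene bodies of 500 kb or more had a median of 4221 calls at day 3, against 280 for all tested. Their median share left was 67.03%, against 74.6% for all tested. The departing genes were not matched for length or calls, so a link with gene function was not tested.

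Of the 15 that kept more, Gm10718, Gm10800, Gm11167, Gm10721, Gm16869, Gm10722, Gm10719 and Gm11168 lie in the stretches of very many calls on chromosomes 2 and 9. Gm16869 spans all of these but Gm10800, so the genes on chromosome 9 share calls and are not separate results. The others were Sox5, Maml3, Tiam1, Prkce, Ppm1h, Fndc3b and 1700025G04Rik. Sox5, a SoxD transcription factor, was at 43.9% and 46.9% at day 3, at 35.95% at day 6, and at 38.4% and 40.03% at day 9, with 85.8% left. Fndc3b was at 40% and 44.5% at day 3 and at 40.1% and 43.3% at day 9, with 97.0% left, and its groups overlapped. Maml3, a Notch coactivator, kept 91.8%, and Tiam1, a Rac exchange factor, kept 92.3%.

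Gene lists were described by how many of their tested members passed, beside 9.64% of all gene bodies. Passing went with gene length, as given above, and the lists were not matched for it. Of the protocadherins, cell adhesion proteins expressed mainly in neurons, 7 of 13 tested members fell and 0 rose, with a median share left of 53.3%. Pcdh15 was at 31.0% and 34.3% at day 3, at 18.3% at day 6, and at 17.5% and 17.5% at day 9 (-15.3 ± 1.46 points, SE, adjusted p = 2.5e-07). Pcdh9 was at 25.6% and 28.9% at day 3 and at 13.1% and 13.4% at day 9, with 48.4% left. Pcdh7 fell by 14.8 ± 2.19 points (SE, adjusted p = 9.3e-05), and Pcdh11x on the X chromosome by 13.7 ± 2.92 points (SE, adjusted p = 0.0040). Pcdh17, Pcdha11 and Pcdhgc5 also fell, of which the clustered genes Pcdha11 and Pcdhgc5 overlap other genes of their clusters. Pcdh15, Pcdh9 and Pcdh11x are over 500 kb long, a class in which 97.6% of gene bodies passed. Pcdh7, Pcdha11 and Pcdhgc5 are 100 to 500 kb long, a class in which 40.7% passed. At the other end Pcdhb19 and Pcdh12 changed by 3.8 and 10.4 points, without passing (adjusted p of 0.797 and 0.346). Summed over all 38 protocadherin bodies, the level was 24.5% and 26.9% at day 3, 13.6% at day 6, and 13.9% and 14.2% at day 9.

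Olfactory receptor genes, which lie in CpG-poor clusters, were mostly too short to test, and 6 of 1249 had enough calls. Olfr56 was the only one of the 6 to pass, with a fall by 12.2 ± 3.58 points (SE, adjusted p = 0.0318). Its annotated body is unlike most of the family, at 100 to 500 kb, a class in which 40.7% of gene bodies passed. Summed over all 1251 annotated bodies, the level was 30.5% and 32.2% at day 3, 17.6% at day 6, and 16.9% and 19.2% at day 9, so 57.6% was left, against 77.4% for all genes. Their 1 kb promoters kept 57.0%, whereas promoters of all genes kept 83.6%. The values of all genes and all promoters were not matched to this family for CpG density. The 2 groups of autosomal tiles poorest in CpGs kept 52.7% and 60.9% at the median, so a share of this size was not particular to the family. Of the tested receptors at the ends of the list, Olfr18 and Olfr78 changed by -19.9 and -14.8 points, and Olfr115 and Olfr288 by -5.83 and -3.53 points, none of them past the threshold.

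Of zinc finger genes named Zfp with a number, which include many KRAB repressors, 20 of 283 tested members fell (7.07%) and 0 rose. Zfp212 was at 45.2% and 42.9% at day 3 and at 4.08% and 7.69% at day 9, and it was also among the 10 largest falls of the gene bodies that passed. Zfp330 was at 33.3% and 45.2% at day 3 and at 8.82% and 15% at day 9. At the other end Zfp28 and Zfp445 changed by 12.1 and 13.5 points without passing.

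Of imprinted genes, where methylation set in a parental germline marks an allele, 4 of 26 tested members fell and 0 rose. All 4 are 100 to 500 kb long, a class in which 40.7% of gene bodies passed. Their values are for whole gene bodies and not for the imprinted regions within or beside them. Snrpn, whose promoter is the imprinting centre of its cluster, was at 28.5% and 27.0% at day 3, at 13.5% at day 6, and at 13.6% and 12.2% at day 9 (-14.7 ± 4.17 points, SE, adjusted p = 0.0272). It no longer passed when any of the 4 libraries was left out, with adjusted p from 0.0990 to 0.211. Kcnq1, a potassium channel whose body holds Kcnq1ot1, was at 34.6% and 36.1% at day 3 and at 23.0% and 26.6% at day 9. Commd1, which holds Zrsr1, and Trappc9, which holds Peg13, fell by 10.4 and 7.92 points. Peg10 and Mest had the largest falls in points of the list, at -17.7 and -17.6 points, yet with adjusted p of 0.139 and 0.0587. Igf2r, Meg3 and Peg3 changed by -7.71, -12.8 and -12.8 points without passing, and Dlk1 and Cdkn1c by 2.55 and 4.44 points without passing.

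Of the methylation enzymes and their partners, 0 of 21 tested members passed, although 19 of 21 had a negative estimate and the median was -7.96 points, close to that of all genes. Dnmt3a, a de novo methyltransferase, was at 30.9% and 30.9% at day 3 and at 22.4% and 28.7% at day 9. Dnmt3b, the other de novo enzyme, was at 27.8% and 30.6% at day 3 and at 18.7% and 25.2% at day 9. Dnmt3l, their cofactor, changed by -8.65 points, Dnmt1 itself by -8.52, Uhrf1 by -4.43, Tet1 by -4.71 and Tet2 by -10.5. Mbd2, a reader of methylated DNA, was near the low end with -11.8 points, and Ehmt2, a histone methyltransferase, and Hells, a chromatin remodeler, were at the high end with 0.0471 and 0.522 points. The standard errors of these 10 genes ran from 2.84 to 7.40 points, so changes of the size of the median were mostly not detectable in them.

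Of pluripotency genes, 1 of 15 tested members fell. Esrrb, an orphan nuclear receptor of the naive ESC network, was at 30.8% and 31.0% at day 3, at 20.8% at day 6, and at 20.4% and 18.1% at day 9 (adjusted p = 0.0076). Dppa2 and Prdm14 changed by -16.9 and -15.5 points without passing. Pou5f1, the core pluripotency factor, had 0% at day 3 in both libraries and 2.44% and 9.80% at day 9 over 72 and 92 calls, and Klf4 changed by 8.80 points, both without passing. Of germline genes, 0 of 23 tested members passed. Dmrtb1 and Asz1 changed by -18.1 and -16.6 points, Dazl, an RNA binding protein of germ cells, by -13.8 points, and Stag3 and Piwil1 by 8.30 and 8.62 points. Their 26 promoters together were at 31.3% and 27.5% at day 3, at 12.1% at day 6, and at 19.8% and 21.9% at day 9, both below day 3.

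Of transcription factors of the germ layers, 0 of 7 tested members passed, with values from -10.8 points in T and -9.35 in Gata6 to 1.46 in Cdx2 and 13.3 in Eomes. Of fibroblast genes, listed because feeder cells can be present, 0 of 10 tested members passed. Col3a1 and Col6a1 changed by -16.7 and -13.1 points, and Fbn1 and Pdgfra by -5.11 and -4.79. The deleted stretch of Dnmt1 cannot show whether cells with an intact gene were present. It was chosen for having 0 calls in the 5 Dnmt1 KO libraries, and it held only 7 to 29 calls per control library.

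**Figure D4:**
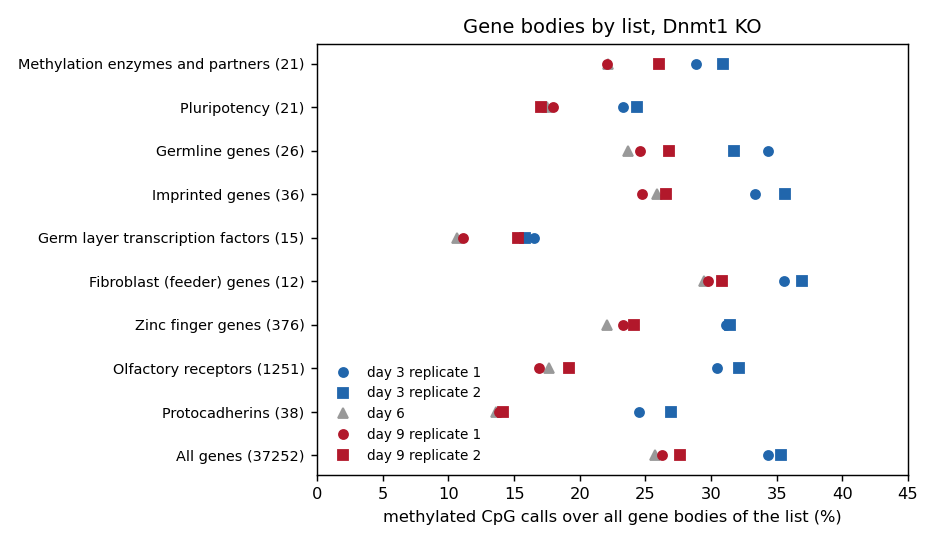
Percent of methylated calls summed over the gene bodies of each list (horizontal axis), with the number of annotated genes in parentheses, 1 point per Dnmt1 KO library. Protocadherins went from 24.5% and 26.9% at day 3 to 13.9% and 14.2% at day 9 and olfactory receptors from 30.5% and 32.2% to 16.9% and 19.2%, and germ layer factors lay closest, with 15.3% in day 9 replicate 2 against 15.8% in day 3 replicate 2.

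The 10 gene bodies with the largest falls among those called were Pusl1, Serpina6, Zfp212, Gm12659, Slfn4, Akr1c6, 2610028H24Rik, Gabra6, Ap1s1 and Gm13775. They had between 46 and 149 calls at day 3 and fell by 31.6 to 43.5 points. Serpina6, corticosteroid-binding globulin, was at 54.5% and 35.5% at day 3, at 0% at day 6, and at 10% and 0% at day 9. Slfn4, a Schlafen family gene, was at 47.5% and 51.1% at day 3, at 21.2% at day 6, and at 10% and 22.4% at day 9. Gabra6, a GABA receptor subunit, was at 32% and 41.7% at day 3 and at 9.68% and 0% at day 9. Groups did not overlap in these 3 genes, which were chosen for their falls in the same libraries, and few calls stand behind each value. Each of the 10 lost its call in at least 1 fit that left out a library.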

How the data were processed

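Whole-genome bisulfite reads were aligned by the authors with Bismark to NCBIM37, and per the labels the deposited tables give, for each cytosine and strand, counts of methylated and unmethylated calls and their percent methylation. The study's submitters name version 0.12.3 of Bismark in their processing notes. The deposited counts were used and the percent column was only checked. Levels are 100 times methylated over all calls. Genes are GENCODE vM1 models of the same build. Tiles needed 50 calls and gene bodies 20 in each of the 18 libraries. Both were tested with a quasi-binomial model with identity link (R 4.3.3) and a level per genotype and day, with dispersion moderated by limma 3.58.1 and Benjamini-Hochberg adjustment. Departures were tested from the median change and from the proportional change (73.8% left). Alternatives used edgeR 4.0.16, limma on log2 ratios with 1 added to each count, other call minimums, tile sizes, libraries and a replicate block. Classes of CpGs were compared with exact permutation tests over libraries. The fit was tested on simulated data. The members and gene lists were chosen with earlier results of these data known. Named are, for tiles, the 5 largest falls and the 5 that departed with the smallest fall or a rise, for gene bodies the 10 called with the largest fall, for each list the 2 members at either end, and a short set of methylation, pluripotency, imprinted and germline genes where tested (H19 and Nanog were not). Calls at low coverage limit single sites, so no single site was tested. Transposon classes were not analysed here. Some items that the naming rule covers are not reported here.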

Additional observations from a re-analysis of the deposited data

Results flagged for a closer look

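Results are given here where the change from day 3 to day 9 differed between Dnmt1 KO and control, as the Dnmt1 KO change minus the control change in points. On autosomes the difference was -10.2 points, with p = 0.0556 in the exact permutation test. It was -11.8 points on the X chromosome, -1.42 at dense CpGs, -9.21 in gene bodies and -6.52 in promoters, and was not tested there. In these classes both day 9 libraries lay below both day 3 libraries in Dnmt1 KO and above both in control. The Dnmt1 KO change alone was -0.470 points at dense CpGs and -3.36 points in promoters. A large part of both differences thus came from control. Sparse, intermediate and intergenic CpGs are not listed, because their control day 9 libraries were not both above both control day 3 libraries. In Dnmt1 KO they changed by -10.2, -7.12 and -10.4 points, so leaving them out does not mean that they moved as in control.

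In the quasi-binomial test the difference passed in 9713 tiles. Of the named tiles, it was -32.5 points in chr5:68800001-68900000, -32.4 in chr5:58000001-58100000, -24.3 in the Hsf3 tile on the X chromosome, -27.5 in the Gm14911 tile, -23.7 in chr2:96500001-96600000, -31.3 in chr4:51300001-51400000, -8.12 in chr2:98500001-98600000, -1.95 in the AY036118 tile and -8.15 in the Gm tile on chromosome 9. It was -55.5 points in the Fgf13 tile, where control also moved, from 54.4% to 80.7%. In the AY036118 tile control went from 5.28% to 7.02%, and Dnmt1 KO changed by -0.216 points without passing. Most of the difference in that tile thus came from control.

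Of the gene bodies named, the difference passed with -16.7 points in Pcdh15, -12.9 in Pcdh7, -16.3 in Pcdh9, -16.6 in Lrrc4c, -16.5 in Lrp1b, -19.9 in Ncam2, -14.7 in Fstl5, -17.2 in Grm7, -12.0 in Cntnap2, -14.7 in Nrxn3, -9.15 in Sox5, -12.0 in Kcnq1 and -18.7 in Olfr56. In the stretches of very many calls it was -8.64 in Gm10718, -7.87 in Gm10800, -7.65 in Gm11167, -9.21 in Gm10721, -8.14 in Gm16869, -7.85 in Gm10722, -8.04 in Gm10719 and -8.23 in Gm11168. All of these but Gm10800 lie in the span of Gm16869 and share its calls. The difference was -36.5 points in Mest, where control went from 63.8% to 82.7%, and -49.7 in Ap1s1, where control went from 57.6% to 75.2%, so that a large part of both differences came from control. Among gene bodies called lower in Dnmt1 KO, it did not pass in Snrpn, Commd1, Trappc9, Esrrb, Pcdh11x, Pcdh17, Pcdha11, Pcdhgc5 and Zfp330. Nor did it pass in the called gene bodies with the largest falls, Ap1s1 apart. This does not show that these genes changed as in control.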

How the results depend on the processing

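Alternatives for values that answer a comparison were judged by sign for levels and by a change of over 1.5 times for counts. By this rule 104 stayed the same, 8 counts went up and 28 down. The size of a level and its p were not part of the rule. The causes were not tested. With at least 200 calls per library, 6041 of 14442 tiles changed, 1 departed from the median change, 2 from the proportional change and 3336 differed from control. Without cytosines of over 20 calls, 2 and 1 tiles departed from the median and the proportional change. With the 9 Dnmt1 KO libraries alone these were 14 and 112 (93 with a larger share lost), with 2606 gene bodies changed, and with the 4 libraries of days 3 and 9 alone 135 (118 with a smaller fall) and 430 (350 with a larger share lost), with 3104 gene bodies changed (3 of them higher). In these fits the proportional change was again 73.8% left, while the median tested 100 kb tile kept 69.5%. limma on log2 ratios called 120 gene bodies. With tiles of 50 kb, 3 departed from the median change and 2982 differed from control. With tiles of 1 Mb, 2575 of 2577 changed, 111 (66 with a larger fall, 45 with a smaller one) and 705 (606 with a larger share lost) departed and 2566 differed from control. Leaving out 1 library at a time gave 3103 to 11702 changed tiles, 1 to 4 departing from the median change, 1 to 6 from the proportional change, 1043 to 10388 differing from control and 296 to 871 gene bodies.

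Of 67 named tiles and gene bodies, 16 lost a call in at least 1 alternative, in 56 cases in all, and a call was gained in 9. Lost calls include Snrpn, Zfp330, the Gm14911 tile and the 10 called gene bodies with the largest falls when a library was left out, and Pcdh15 and Pcdh7 with limma (adjusted p of 0.0501 and 0.0521). Olfr56, Kcnq1, Commd1, Trappc9, Esrrb and the other called members of the lists were not recomputed singly. Estimates of named tiles and gene bodies changed sign in 17 cases, none of them called as changed. Leaving out 1 library at a time gave -0.0259 to 1.72 points in chr13:23500001-23600000, -1.15 to 0.740 in the AY036118 tile, -6.82 to 14.6 in Ehmt2, -5.002 to 6.64 in Hells, -6.33 to 7.40 in Dlk1, -1.50 to 4.69 in Cdx2, -9.61 to 0.253 in Olfr115, -12.7 to 6.89 in Olfr288, -5.84 to 12.0 in Pcdhb19, -23.9 to 3.03 in Peg3 and -8.63 to 1.37 in Uhrf1. limma gave -0.0013 for Ehmt2 and -0.0207 for Dlk1 on the log2 scale. Over 100 kb tiles, differences between replicates 1 and 2 did not go together across days. Pearson's r was -0.0073 between days 3 and 9 in Dnmt1 KO. This cannot decide whether replicate numbers pair the libraries, since r leaves out a shift shared by all tiles. On autosomes, replicate 2 was above replicate 1 on days 3 and 9 in Dnmt1 KO. In control it was below replicate 1 on both days, slightly at day 3 and by more at day 9. With the replicate block, 15288 tiles changed, 4 and 3 departed, 9527 differed from control and 1471 gene bodies changed. The number of calls per feature limits what single genes can show.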
